A study of Sus scrofa with 6 samples.

Results

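GJA1 encodes the gap junction protein connexin 43 (Cx43) and was followed here in pools of pig oocytes after and before maturation in culture. It was represented by the 1 probe, of 12258 on the array's table, whose only gene symbol was GJA1. The 8 other measured connexin genes, those with symbols starting GJA, GJB, GJC or GJD, served for comparison. The samples were 3 pools of oocytes after in vitro maturation and 3 pools before it, each of 50 grade I oocytes from pubertal crossbred Landrace gilts, with 1 array per pool. For the matured pools, whole cumulus-oocyte complexes, in which somatic cumulus cells still enclose the oocyte, were kept for 44 h at 38 °C under 5% CO2 in TCM-199 medium with BSA, cysteine, 10% porcine follicular fluid, and hCG and eCG at 2.5 IU/ml each. All pools came from ovaries collected at slaughter, and only the matured ones were cultured. The design text also mentions a BCB dye test used to select oocytes, but no sample label gives its result. The titles call the uncultured group in vivo oocytes. The sources used here do not say whether cumulus cells were stripped before RNA extraction.

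Connexins are membrane proteins that assemble into hemichannels, and hemichannels of adjoining cells dock to form gap junctions, through which ions and small molecules such as cyclic nucleotides pass. In the ovarian follicle Cx43 couples granulosa and cumulus cells to one another, while in the mouse the junctions on the oocyte itself are built mainly of Cx37, the product of GJA4, which was not analysed here. In rodents, cGMP made in the somatic cells reaches the oocyte through this network and holds it in meiotic arrest, and the coupling is lost around the time at which meiosis resumes.

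GJA1 transcript was lower after maturation. Its log2 level was 8.46, 8.80 and 8.65 in the matured pools, against 10.95, 10.72 and 11.07 in the pools before maturation. The groups did not overlap, as for 14.4% of all probes in this direction, and the highest matured pool lay well under the lowest pool before maturation. The means were 8.64 ± 0.17 after and 10.91 ± 0.18 before maturation (SD, n = 3 each). The log2 difference, after minus before, was -2.27 (SE 0.13, 95% interval -2.57 to -1.98), which is a 4.83-fold lower level with an interval of 3.94 to 5.92-fold (limma adjusted p = 2.45e-05 over all probes). Of the 12258 probes, 62 had a larger decrease. The spread within each group was small beside this difference. Same-numbered pools differed by -2.49, -1.92 and -2.41, the smallest difference being that of replicate 2, which was the highest matured pool and the lowest pool before maturation. An exact two-sided permutation test of 3 pools against 3 gave p = 0.10, the smallest value this design allows. GJA1 lay above the upper quartile of every array (7.80 to 7.88 after and 7.90 to 7.92 before maturation), so neither group rested on dim signal. In pooled material, fewer cells of a type and less RNA per cell cannot be told apart, and effects of maturation and of the culture cannot be told apart.

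**Figure D1:**
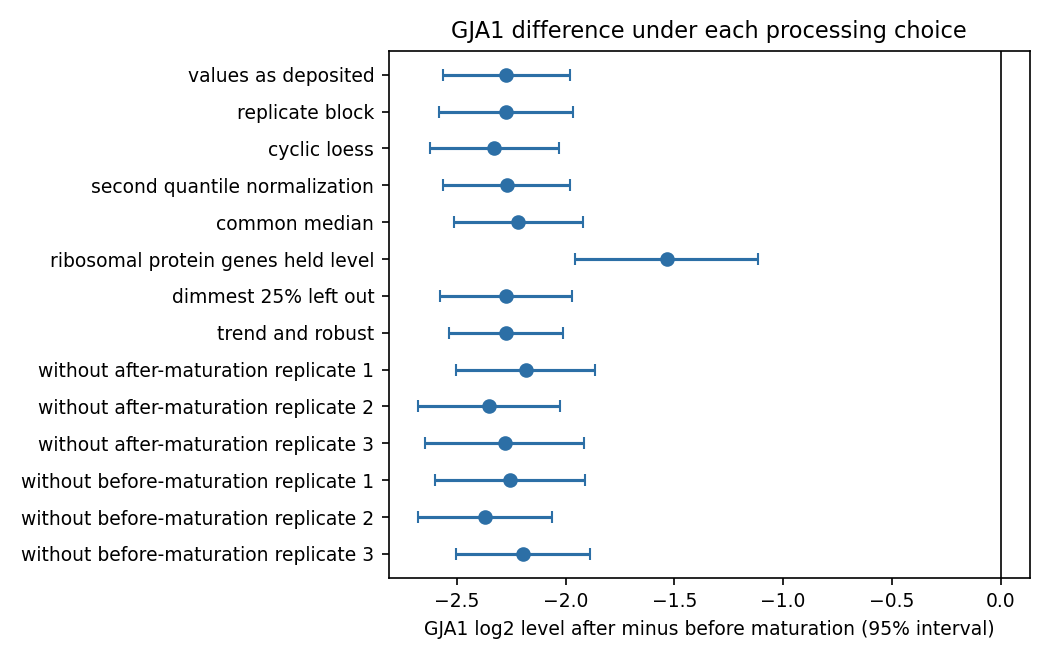
Log2 difference of GJA1, after minus before maturation, with its 95% interval (points and bars) for the deposited values and each of 13 other processing choices. All differences lie below 0, between -2.37 and -1.54, the smallest with ribosomal protein genes held level. The interval for that choice rests on a spread shared across genes.

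The size of the GJA1 decrease depended on 1 scaling choice in the plot of processing choices. With the 40 measured ribosomal protein genes held level, which adds one amount to every probe of an array, the difference was -1.54 and the fold 2.90. The fit under this scaling gave GJA1 and the other connexins the same SE of 0.21. Its interval and its calls therefore do not rest on each gene's own spread. That scaling moved the median probe to 0.82, against 0.08 on the deposited scale. Relative to the median probe the GJA1 difference was -2.35 under both scalings. Leaving out each pool in turn gave differences between -2.37 and -2.18.

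The other connexins did not share one direction. Of 8 measured, 1 was called lower, 2 higher and 5 neither, where 8.07% of all probes were called lower and 3.21% higher at a limma adjusted p under 0.05. Their median difference was 0.27, against 0.08 for all 9828 named genes.

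GJA5 encodes Cx40, known from the arterial endothelium and the atrial myocardium. It had log2 levels of 5.84, 6.01 and 5.61 after maturation, against 7.56, 7.32 and 7.44 before it. Every matured pool was below every pool before maturation, as for 14.4% of all probes. The level fell by 1.62 (SE 0.12, adjusted p = 0.000132), a 3.08-fold lower level. None of the 7 endothelial markers measured was called by limma, although 2 were higher and 0 lower at an unadjusted p under 0.05. SOX17 was called higher in 4 other settings, among them the replicate block (0.51, adjusted p = 0.0369), and KDR in 2. Among all 9828 named genes 1597 were higher and 1461 lower at that unadjusted threshold. The endothelial markers had a log2 summed level of 8.76 to 8.96 after and 8.68 to 8.78 before maturation. The part of endothelial cells in the GJA5 result was not tested.

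GJB5, which encodes Cx31.1 of epidermal cells, and GJA10, a connexin gene known from retinal neurons in the mouse, rose by small amounts. GJB5 had levels of 5.00, 5.02 and 5.02 in matured pools, against 4.51, 4.54 and 4.66 before maturation (difference 0.44, adjusted p = 0.0156). GJA10 had levels of 5.97, 5.81 and 5.74 in matured pools, against 5.31, 5.38 and 5.08 before maturation (difference 0.58, adjusted p = 0.0150). For both genes the groups did not overlap, as for 21.7% of all probes in this direction. Neither gene was called without matured replicate 1 or matured replicate 2, and GJB5 was also not called without matured replicate 3 or with cyclic loess scaling.

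GJD2 encodes Cx36, the main connexin of electrical synapses between neurons. Its levels were 7.99, 7.90 and 8.16 after maturation, against 7.43, 7.72 and 7.64 before it, without overlap, as for 21.7% of all probes in this direction. The difference of 0.42 had a limma adjusted p of 0.0515, and with the replicate number as a block the adjusted p was 0.0459. GJC1, the Cx45 gene of cardiac and smooth muscle, had levels of 9.63, 9.63 and 9.55 after and 9.16, 9.48 and 9.52 before maturation, also without overlap. Its difference was 0.22 (95% interval -0.05 to 0.48, adjusted p = 0.244). The signals of GJB1, GJD4 and GJB7 were lower, between 3.42 and 5.03 on all arrays. GJB1, the Cx32 gene of liver and Schwann cells, differed by 0.32 (adjusted p = 0.161), GJD4 by 0.20 (adjusted p = 0.278) and GJB7 by 0.08 (adjusted p = 0.566). The GJB7 groups did not overlap either, but its probe was below the lower quartile of each array, so a change in it could be hidden by background. With ribosomal protein genes held level, 7 of the 8 connexins were called higher and GJA5 stayed lower. Under that scaling 10610 of all 12258 probes were called higher, a like share, so this count is no property of the connexins.

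**Figure D2:**
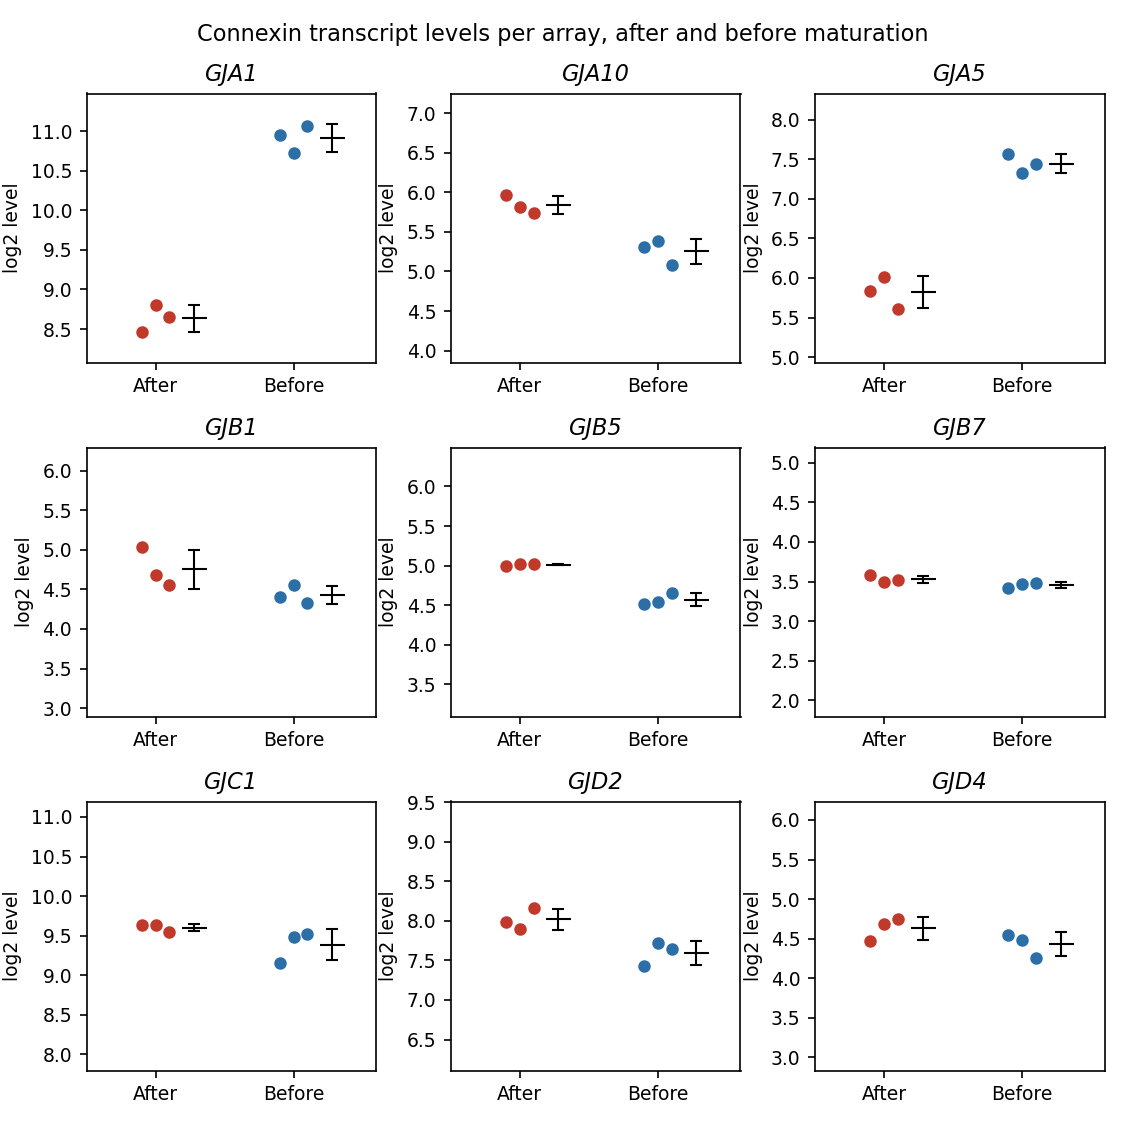
Log2 level of GJA1 and the 8 other connexins in each pool (points) after (red, left) and before maturation (blue, right), with the mean and SD of 3 pools as black bars. Each panel spans the same range of log2 units. GJA1 and GJA5 are the panels with matured pools below the others.

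The GJA1 change was set against each connexin's change by testing the difference within arrays (GJA1 level minus the other gene's level), fitted over all probes. It was more negative than that of all 8 connexins, each at an adjusted p under 0.05. This is no property of the connexins. With each probe's own spread the same was called for 98.5% of all other probes, at the same threshold. A decrease larger than that of GJA1 was called for 0.22%. The moderated fit called 99.1% and 0.335%. For GJA5, the nearest in size, the GJA1 change minus the GJA5 change was -0.65 (95% interval -1.06 to -0.24 from that gene's own spread, adjusted p = 0.0119). Against the other 7, the differences lay between -2.86 for GJA10 and -2.35 for GJB7. The moderated fit for these differences gave all probes one common spread, because GJA1's own scatter enters each of them. Its intervals are therefore replaced here by those from each probe's own spread, a choice made after seeing the data.

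Genes of the cell contacts that support gap junctions showed mixed changes. Of 15 listed junction partners 9 were measured, of which 2 fell, 1 rose and 6 were not called. Over all probes 8.07% were called lower and 3.21% higher. The list's median difference was 0.03. CDH2, the N-cadherin gene, whose protein holds granulosa cells together, had levels of 7.60, 7.56 and 7.79 after maturation, against 9.39, 9.17 and 9.66 before it. Its groups did not overlap, as for 14.4% of all probes in this direction, and it fell by 1.76 (adjusted p = 0.000140). The GJA1 change minus the CDH2 change was -0.51 (95% interval -0.89 to -0.14, own spread, adjusted p = 0.0194), and in the moderated fit this call was lost without matured replicate 3. JUP, the plakoglobin gene of adherens junctions and desmosomes, fell by 1.18 (adjusted p = 0.0219), a call lost without matured replicate 1 or 2. CAV1, the caveolin gene, rose by 0.49 (adjusted p = 0.0402), from dim signals (below each array's lower quartile) before maturation, and was not called in 7 other settings. The catenin genes CTNNA1, CTNNB1 and CTNND1, which link cadherins to the cytoskeleton or stabilise them, had differences of -0.22, 0.03 and 0.09 and were not called. TJP1, the ZO-1 scaffold gene whose product binds the tail of Cx43, was not analysed here. The 3 pannexin genes, whose products form single-membrane channels related in shape to connexin hemichannels, had differences of 0.17 to 0.20 and were not called by limma, with 0 of 3 at an unadjusted p under 0.05. PANX1 was called higher when quantile normalization was repeated (0.35, adjusted p = 0.0472). All 3 pannexins were called higher under the ribosomal protein scaling. So were 10610 of all 12258 probes, so that count is no property of the pannexins.

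**Figure D3:**
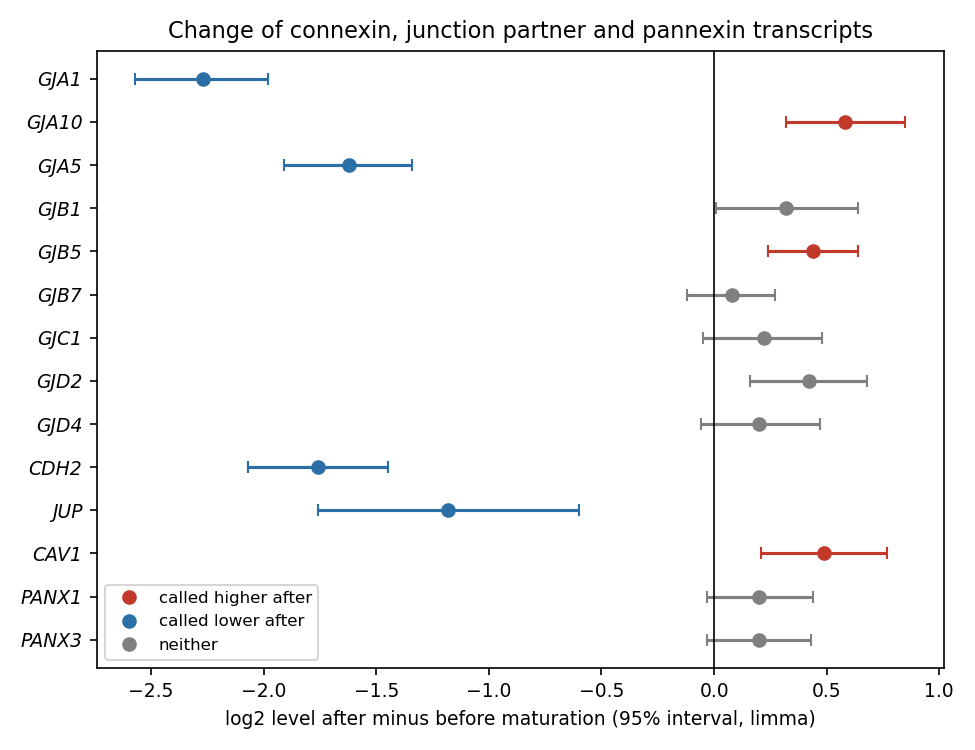
Log2 difference after minus before maturation (points) with its 95% interval from limma (bars) for GJA1, the 8 other connexins, the junction partners CDH2, JUP and CAV1, and the pannexins PANX1 and PANX3. GJA1 at -2.27, CDH2 at -1.76, GJA5 at -1.62 and JUP at -1.18 lie on the lower side.

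Among genes that act on Cx43 after it is made, PRKCB and ERP29 were called lower. Some of the kinases that phosphorylate its tail close or remodel the channels. Of 16 listed kinase genes 6 were measured, of which 1 fell and 5 were not called, where 8.07% of all probes were called lower. PRKCB, a protein kinase C gene, fell by 3.23 (adjusted p = 0.000214). Its levels were 4.32, 4.21 and 4.22 after maturation, against 6.95, 7.28 and 8.19 before it, and the matured signals lay below each array's lower quartile, so the fold is not exact. SRC, a tyrosine kinase gene of the same list, had a difference of -0.15 and was not called (adjusted p = 0.361). Of 7 measured genes of connexin folding, trafficking and degradation, ERP29 fell by 0.42 (adjusted p = 0.0392). ERP29 encodes an endoplasmic reticulum protein that holds Cx43 as monomers, and its call was lost with the replicate block (adjusted p = 0.0509) and in 9 other settings, turning positive with ribosomal protein genes held level. TRIM21, a ubiquitin ligase gene, had a difference of 0.27 (adjusted p = 0.136).

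Genes of the cGMP signal that travels through gap junctions changed in both directions. Of 13 listed genes of meiotic arrest 11 were measured, of which 3 fell, 1 rose and 7 were not called, with a median difference of -0.03. Over all probes 8.07% were called lower and 3.21% higher, so decreases made up 71.5% of the calls. NPR2, the receptor that makes cGMP in cumulus cells of the mouse, had levels of 5.18, 5.43 and 5.62 after maturation, against 7.06, 6.92 and 7.43 before it, and fell by 1.72 (adjusted p = 0.000388). NPR3, a clearance receptor for the same ligands, fell by 1.55 (adjusted p = 0.00249). GUCY1B1 (listed as GUCY1B3), a soluble guanylate cyclase subunit gene, fell by 1.29 (adjusted p = 0.0105), a call lost without matured replicate 2. Its signal lay below the array's lower quartile in 2 of the 3 matured pools. PRKG1, a cGMP-dependent kinase gene, rose by 0.59 (adjusted p = 0.00496). PDE3A, the phosphodiesterase of the oocyte that cGMP inhibits, had a difference of 0.12, and GPR3, the receptor that keeps cAMP high in mouse oocytes, had 0.24, and neither was called. The GJA1 change minus the NPR2 change was -0.55 (95% interval -0.89 to -0.21, own spread, adjusted p = 0.0114).

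Of 10 measured genes of gonadotropin and EGF receptor signalling, 1 fell and 0 rose with limma, while 2 were higher and 2 lower at an unadjusted p under 0.05. Over all probes limma called 8.07% lower and 3.21% higher. At the unadjusted threshold 1597 of all 9828 named genes were higher and 1461 lower. PRKAR1A, a regulatory subunit gene of protein kinase A, fell by 0.47 (adjusted p = 0.0426), and its call was lost in 9 other settings, turning positive with ribosomal protein genes held level. PDE4D, a cAMP phosphodiesterase gene of granulosa cells, had a difference of 0.43 (adjusted p = 0.0523, and 0.0387 with the replicate block). It was called higher in 4 other settings, that block among them. Its signals before maturation lay below each array's lower quartile. The EGF-like ligand genes AREG and EREG, which transmit the LH signal to the cumulus, had differences of 0.14 and 0.09 and were not called. Their levels are not shown here, and dim signal could hide a change in them.

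Among 6 measured genes listed as regulators of GJA1 transcription in other tissues, 2 fell and 4 were not called. Over all probes 8.07% were called lower. JUN, an AP-1 subunit gene, had levels of 7.49, 7.08 and 7.63 after maturation, against 10.06, 9.17 and 9.31 before it, and fell by 2.12 (adjusted p = 0.00103). ESR1, the oestrogen receptor alpha gene, fell by 3.61 (adjusted p = 0.000137), with matured signals below each array's lower quartile. The repressor gene TBX3 had a difference of 0.35 and the SP1 gene had -0.16, and neither was called. The JUN change could not be separated from that of GJA1, with GJA1 minus JUN at -0.16 (95% interval -1.15 to 0.84, own spread).

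GJA1 moved with several, but not all, markers of cumulus and granulosa cells. Of 23 listed markers 16 were measured, of which 9 fell, 2 rose and 5 were not called. Over all probes 8.07% were called lower and 3.21% higher. The median difference of the markers was -0.87, against 0.08 for all named genes. These lists and GJA1 were picked with results of the same arrays known, so the shared direction is no independent evidence. The 4 markers with profiles nearest to GJA1 were INHBA, FST, SERPINE2 and CCND2. INHBA, an activin subunit gene, had levels of 8.37, 8.24 and 8.07 after maturation, against 10.18, 10.17 and 10.49 before it, and fell by 2.05 (adjusted p = 3.52e-05). The activin antagonist gene FST had levels of 8.08, 7.86 and 7.94 after maturation, against 9.80, 10.12 and 10.42 before it, and fell by 2.15 (adjusted p = 9.57e-05). In both genes, as in GJA1, the groups were far apart and the pools of a group close together. The GJA1 change differed from that of INHBA by -0.22 (95% interval -0.70 to 0.26) and from that of FST by -0.12 (95% interval -0.78 to 0.54), both from own spread. The 4 markers were picked for nearness to GJA1 on these same arrays. Small differences from GJA1 therefore follow in part from that choice and are no separate evidence.

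SERPINE2, a protease inhibitor gene, fell by 2.92 (adjusted p = 8.94e-06), and CCND2, a cyclin D gene of proliferating granulosa cells, fell by 3.04 (adjusted p = 3.92e-05). The SERPINE2 decrease was larger than that of GJA1 by 0.65 (95% interval 0.15 to 1.15, own spread, adjusted p = 0.0233), while the interval for CCND2 reached 0 (0.76, 95% interval -0.06 to 1.59). HSD17B1, an oestradiol synthesis gene, fell by 4.41, and HSD3B1, a progesterone synthesis gene, rose by 3.95, so the list held changes on both sides of GJA1. The HSD3B1 signal lay below the array's lower quartile in 2 of the 3 pools before maturation, so its fold is not exact. The log2 summed level of the 16 markers was 11.90 to 11.98 after and 12.50 to 13.00 before maturation. No marker is listed at 0, since the deposited scale has no zero. The part of cumulus cell number in the GJA1 result was not tested.

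**Figure D4:**
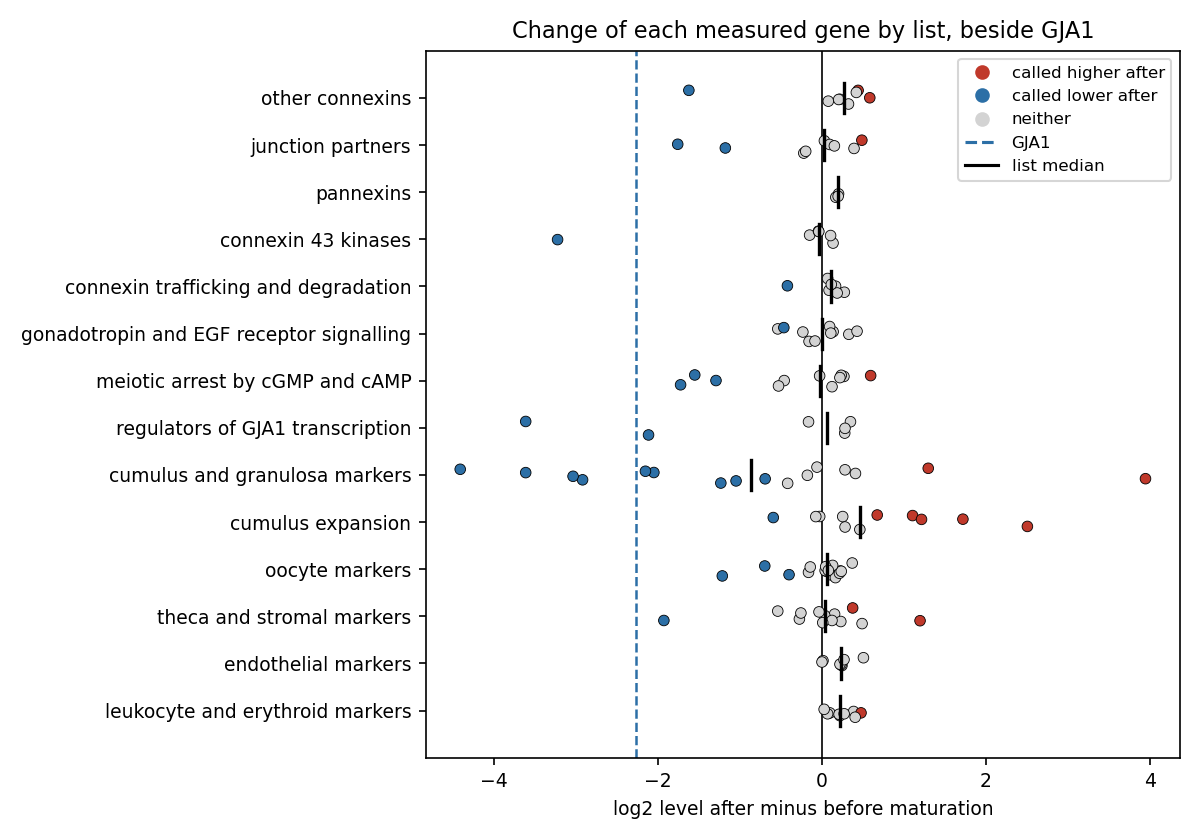
Log2 difference after minus before maturation of each measured gene (points) in 14 lists, coloured by its limma call, with each list's median (black bar) and the GJA1 difference (dashed line at -2.27). Cumulus and granulosa markers scatter on both sides of the GJA1 line, and most other lists centre near 0.

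Genes of cumulus expansion, in which these cells make a hyaluronan matrix, were called higher more often than lower. Of 11 measured, 5 rose, 1 fell and 5 were not called, where 3.21% of all probes were called higher and 8.07% lower, with a median difference of 0.46. HAPLN1, which encodes a hyaluronan link protein, rose by 2.51 (adjusted p = 1.87e-05), HAS2 (listed as SHAS2), the hyaluronan synthase gene, rose by 1.72 (adjusted p = 0.00199), and CD44, the hyaluronan receptor gene, rose by 1.21 (adjusted p = 0.000548). PTGS2, a prostaglandin synthase gene, rose by 1.11 and PTX3, a matrix pentraxin gene, by 0.67, the last not called in 7 other settings. HAPLN1, HAS2, PTGS2 and PTX3 were below each array's lower quartile before maturation. The matrix proteoglycan gene VCAN fell by 0.59 (adjusted p = 0.0278), a call lost without any 1 of the 3 matured pools, and its difference turned positive with ribosomal protein genes held level. The log2 summed level of this list was 10.65 to 10.68 after and 10.80 to 11.24 before maturation. VCAN, at 10.12 to 10.18 after and 10.56 to 11.04 before it, made up most of this sum. The sum therefore says little about the genes that rose.

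Markers of the oocyte, the labelled cell type, had a high summed level in all pools and changed less than GJA1. Their median difference was 0.07, and their log2 summed level was 14.85 to 14.89 after and 14.92 to 15.01 before maturation. Levels of the markers that were not called are not shown here, and dim signal could hide a change in them. Over all probes 8.07% were called lower and 3.21% higher. Of 16 oocyte markers measured, 3 fell and 13 were not called. The 3 were KIT, the receptor gene for KIT ligand from granulosa cells, at -1.22, and the zona pellucida genes ZP3 and ZP4 at -0.70 and -0.40, both positive with ribosomal protein genes held level, and ZP4 not called without any 1 of the 6 arrays. KITLG, the gene of that ligand, had a difference of -0.06 and was not called. Of 13 theca and stromal markers, ACTA2, the smooth muscle actin gene, fell by 1.93 and COL3A1 and POSTN rose by 0.37 and 1.197, both from signals below each array's lower quartile before maturation, and both calls were lost without matured replicate 1 and in other settings. Their log2 summed level was 9.24 to 9.30 after and 9.35 to 9.57 before maturation. Theca cells also contain Cx43, and their part in the GJA1 result was not tested. Of 9 leukocyte and erythroid markers CD3E was called higher (0.48), a call lost in 6 other settings, and the list's log2 summed level was 9.07 to 9.14 after and 8.84 to 8.93 before maturation.

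The genes whose profiles were most like that of GJA1 were found by the root mean square distance between log2 levels centred on each gene's own mean over the 6 arrays. The nearest of 9827 named genes was ENTPD1, an ectonucleotidase gene, at a distance of 0.101 log2 units. It had levels of 7.65, 7.91 and 7.62 after maturation, against 9.98, 9.69 and 10.30 before it, and like GJA1 was highest in replicate 2 among matured pools and lowest in replicate 2 before maturation. The distance rule favours such a match, so the shared order follows in part from the selection. Next came SLC22A17, a lipocalin-2 receptor gene, at 0.124, CLEC2D, a C-type lectin gene, at 0.125, and PHEROC at 0.133. LAMA2, a laminin chain gene, GRB14, a signalling adaptor gene, FAM149A and LGI3 lay between 0.157 and 0.163. Their differences ran from -2.57 for LGI3 to -2.04 for PHEROC, whose matured signals lay below each array's lower quartile, so its difference and its distance are not exact. Pearson correlations with GJA1 over the 6 arrays were 0.990 to 0.999, but a correlation above 0.95 was shared by 352 named genes, since the 2 groups set most of it. None of the 8 is a connexin, and the nearest connexin, GJA5, lay at 0.356.

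**Figure D5:**
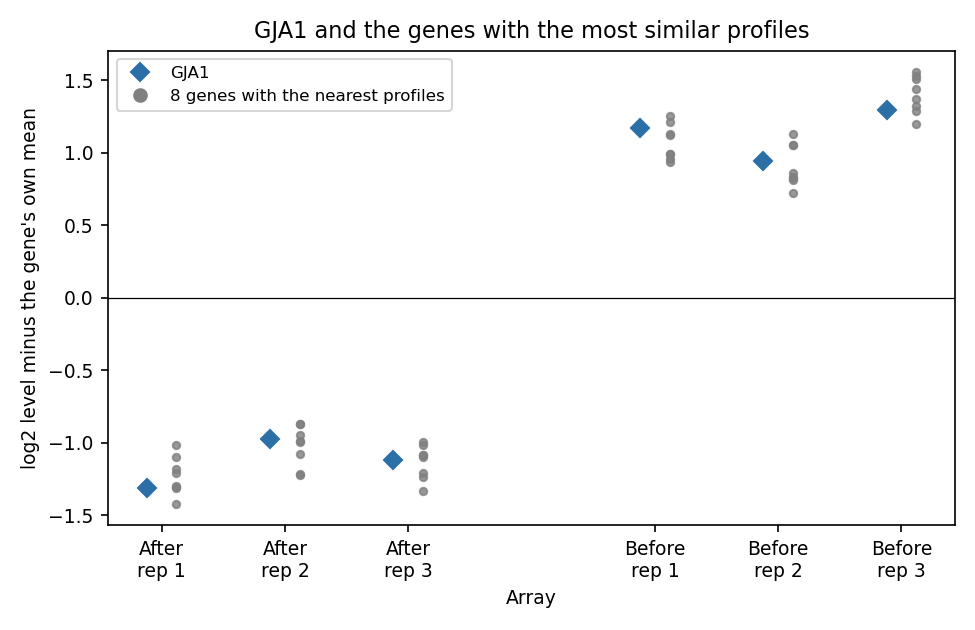
Log2 level minus the gene's own mean over the 6 arrays, for GJA1 (blue diamonds) and the 8 genes with the nearest profiles (grey points), in each pool after (left) and before maturation (right). All lie below 0 in the matured pools and above 0 in the pools before maturation.

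The nearest measured genes on the same chromosome, by their order in the RefSeq table, did not share the GJA1 decrease in size. These genes were chosen for position after the values had been seen. MAN1A1, a mannosidase gene with 1 protein-coding gene between it and GJA1, had mean levels of 7.10 ± 0.17 after and 7.92 ± 0.39 before maturation (SD, n = 3 each). It fell by 0.82 (adjusted p = 0.0281), with the GJA1 change minus the MAN1A1 change at -1.45 (adjusted p = 0.00198 from own spread), and lost its call in 4 other settings. FABP7 and SMPDL3A on one side and MCM9 on the other had differences of 0.16, 0.05 and 0.14 and were not called.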

How the data were processed

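Biotin-labelled RNA (100 ng per pool, amplified before labelling) was measured on 1-colour Affymetrix arrays, per the labels' protocols. The deposited values are log2 levels made by the authors with RMA, per the submitters' processing notes. No source names the scale, and log2 was taken from the use of RMA and from the values' range. The sources used here do not give the RMA version, its options or filters. Values were used as deposited and had not been centred per gene. Depth has no meaning here, and the 3 arrays per group limit the precision. Detection calls were not used here.

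Probes were named from the platform annotation, and symbols were updated by gene identifier to the RefSeq table of Sscrofa11.1, used for names and gene order only. Of 12258 probes 10922 had 1 distinct symbol, 268 several and 1068 none listed. The GJA10 probe repeats its symbol and was counted as 1. The brightest probe stood for each of 9828 named genes. Two-sided tests used lmFit and eBayes of limma 3.58.1 under R 4.3.3 (Benjamini-Hochberg over all probes, threshold 0.05), on all 6 arrays without a block. Array medians were 5.62 to 5.70, correlations across probes were 0.994 to 0.995 within matured, 0.989 to 0.993 within earlier and 0.965 to 0.983 between groups, and replicates differed by medians of 0.125 to 0.168. Same-numbered arrays deviated together (correlations 0.283, 0.120 and 0.142), so blocked values are given where they change a call. The labels give only numbered biological replicates and no pairing. The correlations of same-numbered arrays do not establish one, since no other matching of the arrays was compared. The p-values rest on the spread between these pools.

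GJA1, the 13 gene lists and the rules were chosen with earlier results of these data known. Named were all connexins, CDH2, called members of lists of up to 15 measured genes (the 6 smallest p in longer lists, the 2 smallest where fewer than 2 passed), the 8 nearest profiles and the 4 nearest cumulus markers. List genes named beside these without a call, and chromosome neighbours, were added after their values were seen. On simulated data for this comparison, the fit over 12258 probes called 40 of 40 changes of -2.5, 35 of 40 of -1, 34 of 40 of 1, 15 of 40 of -0.5 and 12 of 40 of 0.5, so changes of that last size were mostly missed, and 5 of 12058 unchanged probes. Alternatives were the replicate block, 4 scalings, a filter on the dimmest 25%, trend with robust, and leaving out each array. Python 3.11.15, pandas 2.3.3 and matplotlib 3.10.9 handled tables and figures.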

Additional observations from a re-analysis of the deposited data

How the results depend on the processing

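The GJA1 decrease kept its direction and its call under all 13 alternatives (differences -2.37 to -1.54), as did the GJA5 decrease, and the GJA1 change stayed below that of all 8 connexins, also with each probe's own spread, except that GJB7 was not tested with the dimmest 25% left out, where it stayed below the other 7. Blocking on the replicate number changed 4 calls of named genes, gaining GJD2 (0.42, adjusted p = 0.0459), PDE4D (0.43, adjusted p = 0.0387) and SOX17 (0.51, adjusted p = 0.0369) and losing ERP29 (-0.42, adjusted p = 0.0509). The block raised the probes called higher to 621, against 394 without it. The 2 connexins called higher became 3 with the replicate block, repeated quantile normalization, a common median or the dimmest 25% left out. The count became 1 with cyclic loess and 7 with ribosomal protein genes held level, and 0 to 2 when single arrays were left out. The probes called higher became 596 when quantile normalization was repeated, 254 with cyclic loess, 915 with a common median and 10610 with ribosomal protein genes held level. Leaving out single arrays gave 103 to 434 higher and 531 to 1013 lower, fewest without matured replicate 1 and most without replicate 1 before maturation. With ribosomal protein genes held level 311 probes were called lower, against 989. The fit under that scaling gave GJA1 and the other connexins one common SE of 0.21, so its calls do not rest on each gene's own spread. Decreases made up 71.5% of calls on the deposited scale, 80.6% with cyclic loess, 59.2% with repeated quantile normalization, 49.3% with a common median and 2.85% with ribosomal protein genes held level. Under that last scaling, which shifts all probes upward by construction, SRC (0.586), ERP29 (0.315), PRKAR1A (0.272), VCAN (0.143), ZP3 (0.0389) and ZP4 (0.335) turned positive. Differences close to 0 turned negative for GJB7 (-0.00472 with cyclic loess) and for SMPDL3A (-0.0579 with cyclic loess, and from -0.0410 without matured replicate 3 and -0.00154 without replicate 1 before maturation up to 0.104 when other arrays were left out), and the cause was not tested. Signals under the lower quartile of the arrays limit what could be seen for GJB7, PANX3, KDR and FABP7, and for PHEROC in matured pools. The same holds for the genes described above as dim either after or before maturation.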
